A study of Mus musculus with 20 samples.

Results

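The ovaries of newborn mice without Lhx8 were compared with those of control mice of the same age by messenger RNA sequencing. The comparison used 6 of the 20 samples of the series, all whole ovaries taken at postnatal day 0 from B6D2F1 mice. The samples were chosen and grouped by library name: 3 libraries named KO, called knockouts here, and 3 named WT, called controls. The titles and the genotype field go the other way in 6 of the 6 libraries, since the libraries named KO carry a control title and the genotype Lhx8+/-, and those named WT a KO title and the genotype Lhx8-/-. Read by title, the study compared Lhx8-/- ovaries with Lhx8+/- ovaries, and every sign given here would turn. The part of Lhx8 that was deleted is not given in the sources used here, nor do the labels say whether each library came from 1 animal or from pooled ovaries, so the tests read only how far these samples vary, in part perhaps from library making. Whole ovaries hold oocytes and all somatic cells, and fewer cells of a type and less RNA per cell cannot be told apart in such samples. The Figla knockout at the same age (3 knockout and 3 control libraries, made with another kit) is set beside the Lhx8 knockout. Its groups follow the library names too, and 2 of its 6 libraries carry a title that disagrees.

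LHX8 is a LIM-homeodomain transcription factor of the oocyte. At birth, mouse oocytes pause in meiotic prophase, germ cell cysts break down, and single oocytes are enclosed by pregranulosa cells to form primordial follicles. LHX8 acts in this window together with FIGLA, SOHLH1, SOHLH2 and NOBOX, which control genes of the egg coat, of maternal stores and of oocyte growth. LHX8 is known to be needed for germ cell cysts to break down and for oocytes to survive after birth. Levels below are counts per 1000000 of effective library size (CPM), in the order control 1, 2 and 3 and knockout 1, 2 and 3. Each log2 fold change is knockout over control from edgeR's quasi-likelihood test, given as value ± standard error (SE), and a gene was called at a Benjamini-Hochberg adjusted p under 0.05.

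Each of the 6 libraries held 8297204 to 9978350 counts over 21080 to 21702 genes, and 5.47 to 6.52% of counts were mitochondrial. The first principal component held 62.24% of the variance and separated the groups, with knockout 1 farthest from the controls. Of 15274 genes tested, 1114 were lower in the knockout (7.29%) and 468 were higher (3.06%). The median log2 fold change of all genes tested was 0.05. The decreases were the larger changes: 283 genes fell over 4-fold and 47 over 64-fold, against 41 that rose over 4-fold and 0 over 64-fold. The groups did not overlap for 1114 of the 1114 lower genes and for 465 of the 468 higher genes. Over all genes tested, the groups did not overlap in 18.1% with lower and in 15.6% with higher knockout levels. The lower genes together held 11.4 to 12.5% of the CPM in the controls and 5.88 to 6.98% in the knockouts, and the higher genes 3.19 to 3.48% and 5.08 to 5.69%. The counts rested on the controls: without control 1 the test called 619 genes lower and 114 higher, without control 2 531 and 99, and without control 3 707 and 204.

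**Figure D1:**
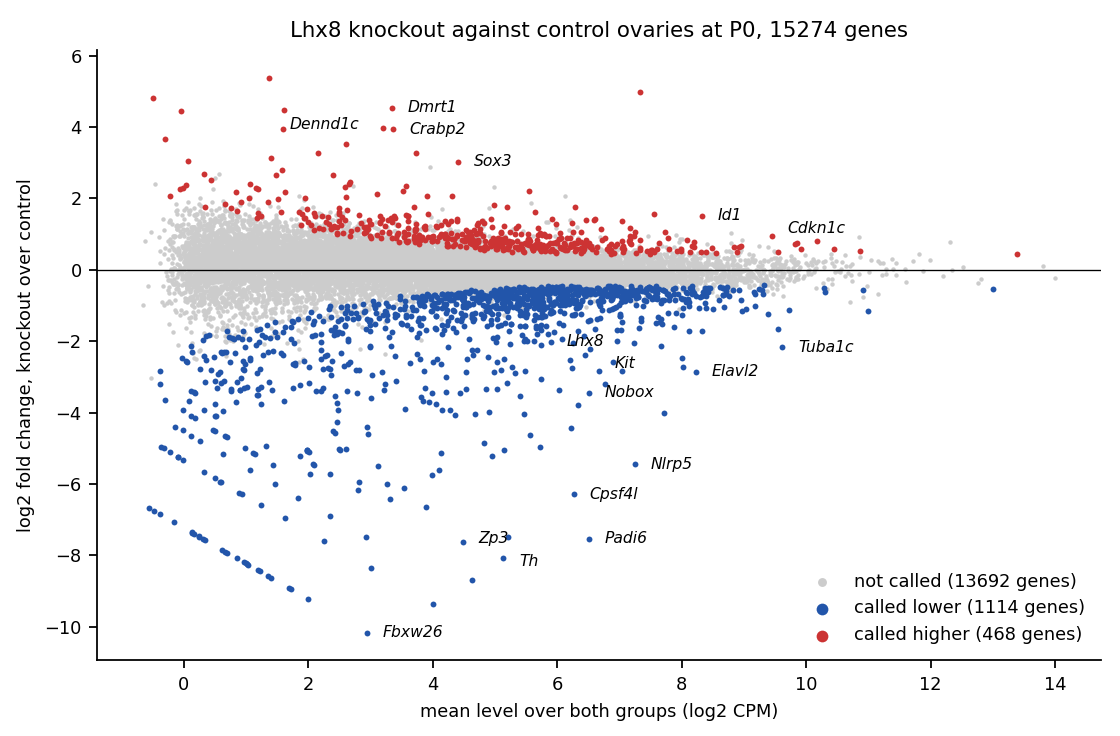
Mean level over the 6 libraries (horizontal axis, log2 CPM) against the log2 fold change of the Lhx8 knockout (vertical axis) for all 15274 genes tested, with called genes coloured. The 1114 lower genes reach much larger changes than the 468 higher genes.

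Transcripts of Lhx8 itself and of its partner Nobox were lower in the knockout, while those of Figla and Sohlh1 were not called. Lhx8 (ENSMUSG00000096225, chr3:154306294-154330659, GRCm38) measured 93.9, 103 and 90.4 CPM in the controls and 16.97, 30.5 and 23.7 CPM in the knockouts. The transcript was thus lower in the libraries named KO, the ones whose titles read control. The change was -2.01 ± 0.20 in log2 units (adjusted p = 0.000206), and the groups did not overlap. A 3' tag outside the deleted part checks no genotype label, so these remaining counts say nothing of the protein. Nobox, a homeobox gene needed for follicles to grow (chr6:43303674-43309554), measured 159, 187 and 155 CPM in the controls and 5.27, 26.9 and 14.02 CPM in the knockouts (log2 fold change -3.44 ± 0.43, adjusted p = 0.000922). Its level was thus low but above 0 in every knockout library.

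Of the basic helix-loop-helix factors, Sohlh2 was called lower and Figla and Sohlh1 were not called. Figla (chr6:86016171-86020996) measured 79.5, 121 and 90.8 CPM in the controls and 61.8, 73.6 and 43.8 CPM in the knockouts (log2 fold change -0.70 ± 0.21, adjusted p = 0.0632). Sohlh1 (chr2:25842995-25847248) measured 889.6, 858 and 662 CPM against 342, 742 and 498 CPM (log2 fold change -0.61 ± 0.24, adjusted p = 0.141). Figla was called lower with DESeq2 (adjusted p = 0.0166), with no filter on low counts (adjusted p = 0.000917), without knockout 2 (adjusted p = 0.0423) and in 1 model of the 12 P0 libraries (adjusted p = 0.0304). Neither difference passed the main test, which does not show that the levels were alike. Sohlh2 (chr3:55182028-55209957) measured 10.6, 15.1 and 13.4 CPM in the controls and 7.71, 6.85 and 4.71 CPM in the knockouts (log2 fold change -1.01 ± 0.26, adjusted p = 0.0357). The Sohlh2 call was lost without knockout 2, knockout 3 or any 1 of the controls (adjusted p up to 0.148), and with libraries scaled to total counts. Trp63, which encodes p63, the guardian of the arrested oocyte's genome, fell from 6.898, 13.96 and 10.1 CPM to 0.683, 0.307 and 0.248 CPM (log2 fold change -4.56 ± 0.47, adjusted p = 0.000255). In the list of oocyte transcription factors, 4 of the 12 genes that passed the filter on low counts were lower and 0 were higher, with a median log2 fold change of -0.59. Among members not called, Taf4b measured -0.57 ± 0.18 (adjusted p = 0.0726) and Taf7l 0.03 ± 0.27 (adjusted p = 0.955) on the log2 scale.

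**Figure D2:**
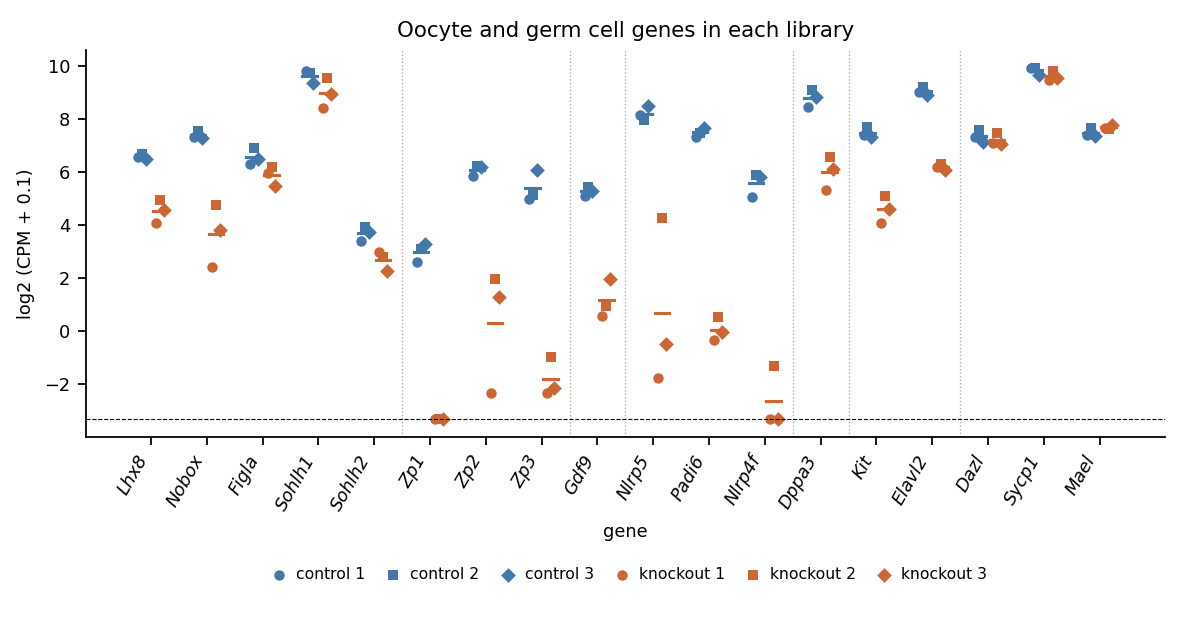
Level of oocyte genes in each library (log scale, CPM), with 3 control and 3 knockout points per gene. The Sohlh1 groups overlap and those of Figla lie close, and the egg coat and maternal genes drop towards 0 in the knockouts.

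The egg coat showed some of the largest losses. Zp1, Zp2 and Zp3 encode the glycoproteins of the zona pellucida, the coat laid down by the growing oocyte. Zp3 (chr5:135980099-135988624) measured 31.1, 35.2 and 67.7 CPM in the controls and 0.0975, 0.409 and 0.124 CPM in the knockouts (log2 fold change -7.62 ± 0.50, adjusted p = 2.8e-05). Zp2 measured 57.7, 74.2 and 73.5 CPM against 0.0975, 3.78 and 2.36 CPM (log2 fold change -5.05 ± 0.54, adjusted p = 0.000323). Zp1 measured 5.96, 8.35 and 9.67 CPM in the controls and 0 counts in every knockout, at least 74.5-fold lower when 3 counts over the 3 knockouts are taken as the floor (adjusted p = 0.000247). For these 3 genes no knockout library came near any control. Astl, the egg's cortical granule protease that cleaves ZP2 after fertilisation, measured 4.08, 3.81 and 5.85 CPM and then 0 counts (at least 42.6-fold lower, adjusted p = 0.000746). Zpld1, with a zona-like domain, also fell (-3.43 ± 0.71, adjusted p = 0.0147), and Ovgp1 rose (1.15 ± 0.32, adjusted p = 0.0445). Both these calls were lost when single libraries were left out (adjusted p up to 0.0652 and 0.147). In all, 5 of 6 egg coat genes that passed the filter were lower and 1 was higher.

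Most genes for signals sent by the oocyte fell. Gdf9, the growth factor through which oocytes drive granulosa cells, measured 34.1, 42.9 and 38.6 CPM in the controls and 1.37, 1.84 and 3.85 CPM in the knockouts (log2 fold change -4.06 ± 0.32, adjusted p = 5.74e-05). Rspo2, a WNT agonist secreted by oocytes, measured 27.1, 31.2 and 21.6 CPM against 2.83, 1.74 and 3.47 CPM (log2 fold change -3.32 ± 0.28, adjusted p = 8.18e-05). Jag2 and Jag1 encode ligands by which germ cells signal to NOTCH2 on pregranulosa cells. Jag2 fell from 25.3, 33.2 and 23.8 CPM to 4.39, 5.11 and 4.09 CPM (log2 fold change -2.59 ± 0.22, adjusted p = 8.18e-05), and Jag1 from 12.2, 17.4 and 17.5 CPM to 10.3, 5.21 and 7.81 CPM (log2 fold change -1.01 ± 0.28, adjusted p = 0.0468). Izumo1r, the egg's receptor for sperm IZUMO1, measured -1.94 ± 0.44 (adjusted p = 0.0211) on the log2 scale. The Izumo1r and Jag1 calls were lost when single libraries were left out (adjusted p up to 0.0977 and 0.162), and 4 of the list were called without control 1 or control 2. Of 8 genes of this list that passed the filter, 6 were lower and 1, the tetraspanin gene Cd81, was higher (0.60 ± 0.16, adjusted p = 0.0416, lost on leaving out libraries, adjusted p up to 0.169). The related tetraspanin gene Cd9, needed for gamete fusion, was not called (-0.14 ± 0.34, adjusted p = 0.824).

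Genes of the subcortical maternal complex and of the oocyte Nlrp family were nearly all lower: 8 of 9 that passed the filter, with a median log2 fold change of -4.51. The complex lies under the membrane of the egg and is needed for the first cleavages. Nlrp5, which encodes its core protein MATER (chr7:23385889-23441922), measured 284, 249.7 and 357 CPM in the controls and 0.195, 19.2 and 0.620 CPM in the knockouts (log2 fold change -5.45 ± 0.98, adjusted p = 0.00665). Knockout 2 stood well above the other knockouts here, though below every control. Ooep, a second subunit, measured 7.32, 13.5 and 9.45 CPM against 0.293, 0.409 and 0.620 CPM (log2 fold change -4.51 ± 0.43, adjusted p = 0.000154). Padi6, a deiminase needed for the cytoplasmic lattices that store maternal proteins (chr4:140727355-140742643), measured 161, 178 and 204 CPM against 0.683, 1.33 and 0.868 CPM (log2 fold change -7.54 ± 0.24, adjusted p = 1.15e-07). In Padi6 the 3 knockouts lay close together, near 0. Nlrp14 measured 7.94, 10.8 and 16.9 CPM against 0.293, 0.511 and 0.248 CPM (log2 fold change -5.01 ± 0.46, adjusted p = 0.000125). Nlrp4f measured 33.6, 58.6 and 56.1 CPM in the controls and 0, 0.307 and 0 CPM in the knockouts, with 3 counts over the knockouts, a ratio of 461-fold (95% counting interval 157 to 2238). Tle6 measured -1.22 ± 0.26 (adjusted p = 0.0176) on the log2 scale, and its call, like those of Nlrp4b and Nlrp4c, was lost when single libraries were left out (adjusted p up to 0.0637, 0.121 and 0.147), that of Nlrp4b with DESeq2 too. Without control 3, 5 of the list were called. The Nlrp4 genes are close copies, so reads may be split between them.

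Maternal effect genes, whose products act in the early embryo, fell in 12 of 19 cases that passed the filter, with a median of -1.88. This median was -0.63 with a minimum count of 50, -1.36 without knockout 1 and -2.89 without knockout 2. H1foo, the oocyte linker histone, measured 19.2, 15.9 and 15.97 CPM in the controls and 0, 0.102 and 1.12 CPM in the knockouts (log2 fold change -5.50 ± 0.64, adjusted p = 0.000556). Btg4, which directs decay of maternal mRNA, measured 7.11, 10.995 and 15.2 CPM against 0, 0.409 and 0.620 CPM (log2 fold change -5.04 ± 0.62, adjusted p = 0.000779). Dppa3, which protects the maternal genome from demethylation in the zygote, measured 349, 539.9 and 458 CPM against 39.5, 93.7 and 69.3 CPM (log2 fold change -2.73 ± 0.29, adjusted p = 0.000325). All 3 had non-overlapping groups, and Dppa3 fell by the least. The chaperone gene Npm2 (-2.81 ± 0.31, adjusted p = 0.000444), the meiotic kinase gene Mos (-4.09 ± 0.76, adjusted p = 0.00828), Tcl1 (-3.45 ± 0.28, adjusted p = 6.63e-05) and Pramef12 (-4.02 ± 0.60, adjusted p = 0.00231) were lower too. Dnmt1 (-0.54 ± 0.14, adjusted p = 0.0372) and Zfp57 (-1.46 ± 0.39, adjusted p = 0.0407), which keep methylation at imprints, were called, but lost the call when single libraries were left out (adjusted p up to 0.153 and 0.173). Cdh1, the adhesion gene E-cadherin, was the 1 higher member (1.17 ± 0.23, adjusted p = 0.0109, adjusted p up to 0.0593 without single libraries). Chromatin genes with broad expression were not called: Trim28 measured 0.02 ± 0.14 (adjusted p = 0.934), Brwd1 -0.25 ± 0.13 (adjusted p = 0.252) and Spin1 0.10 ± 0.22 (adjusted p = 0.789).

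Losses close to complete lay in the F-box/WD40 genes of the Fbxw family and in oocyte members of the Oas1 family, of which 9 of 10 that passed the filter were lower. Fbxw26 measured 14.2, 14.6 and 17.3 CPM in the controls and 0 counts in the knockouts, at least 144-fold lower (adjusted p = 4.97e-05). Fbxw18 measured 29.6, 28.4 and 38.02 CPM and had 1 count over the 3 knockouts against 890 over the controls, a ratio of 896-fold (95% counting interval 160.4 to 35422) (adjusted p = 4.53e-06). Fbxw24 and Fbxw21 had 0 counts in the knockouts, with controls at 2.93, 2.64 and 6.41 and 3.55, 3.17 and 2.81 CPM. These genes sit side by side: within chr9:109601116-109790670 the 4 genes Fbxw24, Fbxw18, Fbxw26 and Fbxw27 formed a run of called genes, with a median log2 fold change of -8.79 as fitted and -6.70 with genes at 0 counts set at their bound. On chromosome 5 the run Oas1e, Oas1c, Oas1h and Oas1d (chr5:120786226-120921652) had medians of -6.59 and -5.67. Oas1e measured 4.81, 6.13 and 4.95 CPM and then 0 counts (at least 49.7-fold lower, adjusted p = 0.000457), and Oas1d measured 6.17, 8.35 and 9.67 CPM against 0.390, 0 and 0 CPM (log2 fold change -5.71 ± 0.69, adjusted p = 0.000728). Oas1b, a neighbour family member with antiviral function, was not called (1.46, 0.846 and 1.01 CPM against 0.780, 1.74 and 2.11 CPM, 0.46 ± 0.52, adjusted p = 0.606). Close copies within both families may share reads, and fitted values of genes near 0 counts depend on the prior count of the fit.

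Runs of at least 3 lower genes within 200 kb numbered 54 over the genome. Besides those of the Fbxw and Oas1 genes, the runs whose members all fell over 4-fold included Slc6a20b, Slc6a20a and Gm17120 on chromosome 9 (chr9:123590800-123678885, median -4.48) and C130026I21Rik, A530032D15Rik and Gm16026 on chromosome 1 (chr1:84992690-85285491, median -5.01). Slc6a20a and Slc6a20b encode amino acid transporters. On the X chromosome 8 lower genes, among them Pnma5 and 5 Xlr genes, formed a run with a median of -0.84. No run was tested, since runs of called genes were formed from the calls themselves. Within 5 Mb of Lhx8 itself 2 of 34 genes tested were lower and 0 higher, against 7.29% and 3.06% of all genes tested. They were Nexn, which encodes the actin-binding protein nexilin (log2 fold change -2.84, adjusted p = 5.15e-06), and Gm43185, which overlaps it (-1.88, adjusted p = 0.0317). These were named after their values were seen.

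Promoters of 6 genes lower in the knockout are shown: the network gene Nobox, 1 egg coat gene, Nlrp5 and Padi6 of the maternal stores, and a pair of neighbouring Fbxw genes. Each runs from 250 bases before to 50 bases after the RefSeq start, 5' to 3' in the direction of the gene (GRCm38.p6). Capitals mark TAATTA and TGATTG and CANNTG on either strand. TAATTA holds the homeodomain core, TGATTG is a motif described for LHX8, and CANNTG is the E-box bound by FIGLA and the SOHLH factors. CANNTG and TAATTA read the same on both strands, and matches of different motifs may overlap.
Nobox (chr6:43309505-43309804, minus strand): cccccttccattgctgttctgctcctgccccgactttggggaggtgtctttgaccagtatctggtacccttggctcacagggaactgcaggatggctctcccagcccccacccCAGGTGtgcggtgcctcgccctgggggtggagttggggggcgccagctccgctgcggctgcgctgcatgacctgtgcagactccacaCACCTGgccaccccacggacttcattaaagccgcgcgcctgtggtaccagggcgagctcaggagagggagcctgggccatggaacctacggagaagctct
Nlrp5 (chr7:23385639-23385938, plus strand): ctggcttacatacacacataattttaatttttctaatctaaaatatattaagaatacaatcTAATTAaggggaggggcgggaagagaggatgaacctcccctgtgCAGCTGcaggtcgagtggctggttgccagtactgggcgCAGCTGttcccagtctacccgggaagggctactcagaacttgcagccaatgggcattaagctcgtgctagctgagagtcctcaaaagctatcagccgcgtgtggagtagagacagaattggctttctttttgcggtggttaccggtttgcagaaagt
Zp3 (chr5:135979855-135980154, plus strand): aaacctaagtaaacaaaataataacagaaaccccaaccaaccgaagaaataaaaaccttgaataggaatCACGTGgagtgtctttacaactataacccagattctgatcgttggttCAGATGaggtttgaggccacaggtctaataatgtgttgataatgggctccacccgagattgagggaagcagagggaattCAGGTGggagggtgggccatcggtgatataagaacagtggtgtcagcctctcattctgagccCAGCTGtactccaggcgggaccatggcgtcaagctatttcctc
Padi6 (chr4:140742594-140742893, minus strand): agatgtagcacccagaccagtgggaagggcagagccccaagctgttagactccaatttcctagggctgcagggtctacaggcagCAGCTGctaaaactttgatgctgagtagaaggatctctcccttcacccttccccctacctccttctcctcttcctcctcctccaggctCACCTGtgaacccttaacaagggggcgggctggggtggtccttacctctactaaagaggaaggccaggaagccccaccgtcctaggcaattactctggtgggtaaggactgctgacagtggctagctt
Fbxw18 (chr9:109702651-109702950, minus strand): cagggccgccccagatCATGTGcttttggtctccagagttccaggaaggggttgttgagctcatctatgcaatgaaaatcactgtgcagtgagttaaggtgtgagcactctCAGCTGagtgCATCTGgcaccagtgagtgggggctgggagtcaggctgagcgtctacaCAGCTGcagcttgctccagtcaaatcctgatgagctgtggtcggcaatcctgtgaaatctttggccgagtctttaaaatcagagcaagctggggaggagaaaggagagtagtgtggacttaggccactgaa
Fbxw26 (chr9:109746040-109746339, minus strand): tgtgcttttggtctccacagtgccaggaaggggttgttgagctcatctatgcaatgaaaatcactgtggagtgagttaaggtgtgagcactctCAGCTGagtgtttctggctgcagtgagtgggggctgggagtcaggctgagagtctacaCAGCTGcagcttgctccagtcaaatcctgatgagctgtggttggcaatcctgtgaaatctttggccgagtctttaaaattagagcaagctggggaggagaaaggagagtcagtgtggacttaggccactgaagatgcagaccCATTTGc

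Only Nlrp5 of these 6 holds TAATTA in this window, and none holds TGATTG. The Zp3 window has 4 E-boxes, those of Nobox, Padi6 and Nlrp5 have 2 each. The Fbxw18 and Fbxw26 windows are near copies, with 272 of 282 aligned bases identical (96.5%). A promoter entry matched 10780 of the 15274 genes tested. TAATTA was present in 2.44% of all these promoters, in 3.45% of those of lower genes, in 2.75% of those of higher genes and in 8.7% (18 of 207) of those of genes lower by over 4-fold. TGATTG was present in 14.3% of all, 17.9% of lower, 16.5% of higher and 14.01% of lower by over 4-fold. CANNTG was present in 63.3% of all, 66.4% of lower, 63.3% of higher and 79.2% of lower by over 4-fold. The class past 4-fold was added after the values were seen, and these shares are a description with no test. The 18 genes with TAATTA that were lower by over 4-fold include Nlrp5, Wee2, an oocyte kinase gene that holds meiotic arrest, and Hsd3b6, a steroid dehydrogenase gene.

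Outside these families, 5 other genes were among those with the largest decreases at 5 CPM or more in the controls. Vrtn, known for vertebral number, measured 16.3, 18.4 and 13.5 CPM in the controls and had 1 count over the knockouts, a ratio of 453-fold (95% counting interval 80.9 to 17929) (adjusted p = 2.08e-05). Th, which encodes tyrosine hydroxylase of catecholamine synthesis, measured 74.5, 71.7 and 64.003 CPM against 0.390, 0.204 and 0.124 CPM (log2 fold change -8.06 ± 0.27, adjusted p = 1.54e-07). For both genes every knockout library was near 0. Gpr143, a pigment cell receptor gene, measured 3.87, 9.52 and 5.96 CPM and then 0 counts (at least 60.4-fold lower, adjusted p = 0.000847). Umodl1 measured 4.599, 8.35 and 6.86 CPM and then 0 counts (at least 61.7-fold lower, adjusted p = 0.000449). Agr3, of the protein disulfide isomerase family, had 1 count over the knockouts and 7.42, 11.1 and 9.79 CPM in the controls (ratio 265-fold, 95% counting interval 47.1 to 10495). All 5 passed the threshold in every alternative run that tested them. Gpr143 and Umodl1 were not tested with a minimum count of 50.

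Genes for RNA binding and translation differed in how far they fell. Eif4e1b, an oocyte cap-binding protein gene, measured 2.299, 2.01 and 2.81 CPM in the controls and 0 counts in the knockouts (at least 22.1-fold lower, adjusted p = 0.00216). Elavl2, an RNA-binding protein gene of oocytes, measured 519, 587 and 479 CPM against 72.7, 79.4 and 66.9 CPM (log2 fold change -2.86 ± 0.14, adjusted p = 4.88e-06). Ddx4, the germ cell helicase of all stages, measured 62.9, 69.9 and 58.5 CPM against 28.4, 40.3 and 31.1 CPM (log2 fold change -0.94 ± 0.16, adjusted p = 0.00559). The fall of Ddx4 was thus smaller, with all knockouts still expressing it. Cpeb1 (-1.72 ± 0.19, adjusted p = 0.000432) and Nanos1 (-1.91 ± 0.37, adjusted p = 0.00961), which repress translation, were lower too. Dazl, another RNA-binding gene of germ cells at every stage, was not called (161, 190.4 and 141 against 138, 176 and 132 CPM, -0.14 ± 0.16, adjusted p = 0.607), nor was Mael (0.20 ± 0.13, adjusted p = 0.352). In this list 8 of 23 genes that passed the filter were lower and 0 higher.

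Kit, the receptor that starts oocyte growth, measured 170.0, 207 and 158 CPM in the controls and 16.97, 34.3 and 23.9 CPM in the knockouts (log2 fold change -2.83 ± 0.24, adjusted p = 8.37e-05). Its ligand gene Kitl, made by pregranulosa cells, measured 156, 160.2 and 149 CPM against 309, 283 and 263 CPM and rose (log2 fold change 0.88 ± 0.12, adjusted p = 0.00175). Receptor and ligand transcripts thus moved in opposite directions, each with groups that did not overlap. Gja4, the connexin of the oocyte's gap junctions, measured 96.6, 91.3 and 73.5 CPM against 23.4, 16.9 and 19.97 CPM (log2 fold change -2.12 ± 0.17, adjusted p = 6.67e-05). Foxo3, which holds primordial oocytes dormant, measured 386, 329 and 331 CPM against 161, 224 and 208 CPM (log2 fold change -0.82 ± 0.15, adjusted p = 0.00845). Of the wider kinase pathway that acts on FOXO3, Tsc1 (-0.25 ± 0.14, adjusted p = 0.271), Tsc2 (0.13 ± 0.14, adjusted p = 0.598) and Akt1 (0.44 ± 0.17, adjusted p = 0.123) were not called. Sycp2l, an oocyte centromere gene, had 1 count over the knockouts and 5.23, 4.86 and 4.05 CPM in the controls (ratio 133-fold, 95% counting interval 23.4 to 5287, adjusted p = 0.000312).

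Meiotic genes had smaller median changes than the egg coat and maternal genes. Of 16 genes of the synaptonemal complex and cohesin that passed the filter, 4 were lower and 0 higher, and of 24 recombination genes 6 were lower and 0 higher, with medians of -0.27 and -0.30. Sycp3, an axial element protein gene, measured 98.8, 111 and 80.2 CPM in the controls and 46.1, 58.3 and 44.8 CPM in the knockouts (log2 fold change -0.96 ± 0.17, adjusted p = 0.00543). Syce1 (-0.82 ± 0.15, adjusted p = 0.00633) and Syce2 (-0.98 ± 0.14, adjusted p = 0.00216), of the central element, were lower as well. Sycp1, of the transverse filament, was not called (978, 973 and 800.1 CPM against 713, 905 and 747 CPM, -0.22 ± 0.14, adjusted p = 0.347), nor was the meiotic cohesin gene Smc1b (-0.05 ± 0.26, adjusted p = 0.924). Among recombination genes Mnd1 (-1.56 ± 0.17, adjusted p = 0.000348), Meiob (-1.33 ± 0.22, adjusted p = 0.00371) and Terb1 (-1.34 ± 0.18, adjusted p = 0.00132) were lower. Hsf2bp and Psmc3ip were also called, but lost the call when single libraries were left out (adjusted p up to 0.128 and 0.169), and 3 of the recombination list were called without knockout 3, control 2 or control 3. Dmc1 measured 0.54 ± 0.49 (adjusted p = 0.512) and Tex15 -0.17 ± 0.17 (adjusted p = 0.560), both not called.

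The pathway of piRNAs, which silences transposons in germ cells, was lower in 11 of 23 genes that passed the filter, with 0 higher and a median of -0.73. Gtsf1, a cofactor of PIWI proteins, measured 105, 129 and 144 CPM in the controls and 23.9, 26.1 and 14.9 CPM in the knockouts (log2 fold change -2.54 ± 0.22, adjusted p = 8.93e-05). Tdrd1, a Tudor scaffold gene, measured 345, 344 and 307 CPM against 59.01, 93.2 and 74.2 CPM (log2 fold change -2.14 ± 0.18, adjusted p = 7.04e-05). Piwil2, which encodes the PIWI protein MILI, measured 140.1, 167 and 129 CPM against 57.7, 79.5 and 61.03 CPM (log2 fold change -1.14 ± 0.16, adjusted p = 0.00200). In each of the 3 the groups did not overlap, and every knockout library still held the transcript. Exd1 (-2.07 ± 0.24, adjusted p = 0.000501), Tdrd5 (-1.57 ± 0.20, adjusted p = 0.000848) and the helicase gene Mov10l1 (-0.80 ± 0.15, adjusted p = 0.00729) were lower too, while Stk31 (-0.15 ± 0.20, adjusted p = 0.663) and Asz1 (-0.18 ± 0.23, adjusted p = 0.645) were not called. The calls of Tdrd9 and Gpat2 were lost when single libraries were left out (adjusted p up to 0.0876 and 0.0843).

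Among genes of DNA methylation, Kdm1b, the histone H3K4 demethylase needed to set maternal imprints, measured 115, 154 and 125 CPM in the controls and 13.9, 26.2 and 18.9 CPM in the knockouts (log2 fold change -2.74 ± 0.23, adjusted p = 7.36e-05). Dnmt3a, the methyltransferase that acts with it later in oocyte growth, was higher (284, 259 and 288 CPM against 392, 376 and 405 CPM, 0.50 ± 0.12, adjusted p = 0.0270), a call lost when single libraries were left out (adjusted p up to 0.136). The Tet genes were not called, with Tet1 at 0.34 ± 0.16 (adjusted p = 0.204) and Tet3 at 0.25 ± 0.18 (adjusted p = 0.412). Of 12 genes that passed the filter, 4 were lower and 1 higher, and 1 or 2 in all were called when any 1 library was left out.

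**Figure D3:**
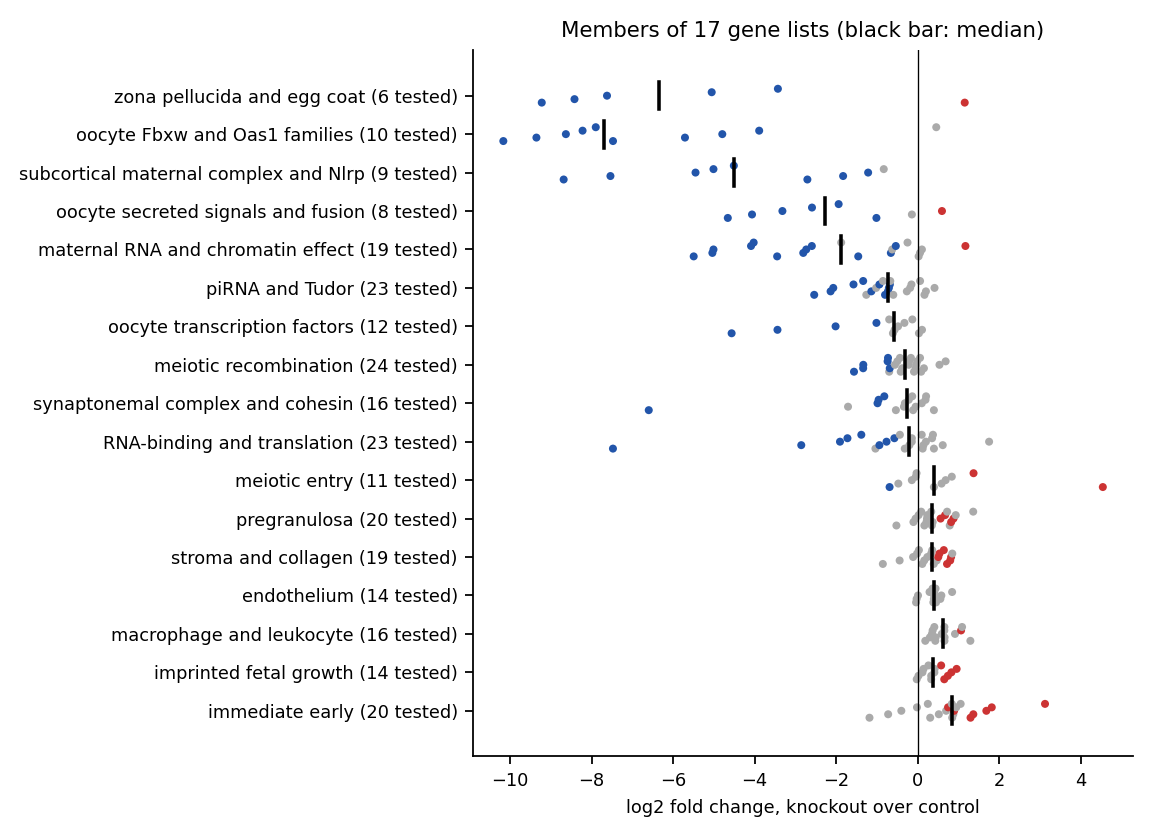
Log2 fold change of each tested member of part of the gene lists (points), with called members coloured and the list median marked. Oocyte lists extend far below 0, while the points of somatic lists lie closer to 0.

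The genes that rose most included regulators known from other germ cell states. Dmrt1, a transcription factor of early germ cells and of the testis (chr19:25505618-25604329), measured 1.15, 0.529 and 0.787 CPM in the controls and 4.29, 42.8 and 11.3 CPM in the knockouts (log2 fold change 4.54 ± 0.83, adjusted p = 0.00729). Crabp2, which carries retinoic acid to its receptors, measured 1.05, 1.37 and 1.35 CPM against 12.4, 26.8 and 18.98 CPM (log2 fold change 3.93 ± 0.35, adjusted p = 0.000123). Sox3, an X-linked gene related to Sry, measured 5.96, 5.81 and 2.02 CPM against 34.2, 43.8 and 35.6 CPM (log2 fold change 3.03 ± 0.33, adjusted p = 0.000352). The groups did not overlap in any of the 3. Esx1, an X-linked homeobox gene, measured 0.209, 0.211 and 0.337 CPM against 2.93, 7.77 and 6.95 CPM (log2 fold change 4.47 ± 0.57, adjusted p = 0.000946), and Dennd1c measured 0.941, 0.952 and 1.35 CPM against 8.49, 23.8 and 19.4 CPM (log2 fold change 3.98 ± 0.43, adjusted p = 0.00038). Slc12a8 (3.26 ± 0.37, adjusted p = 0.000532), Fndc3c1 (2.66 ± 0.35, adjusted p = 0.00111), Tc2n (2.40 ± 0.34, adjusted p = 0.00169), the glucose transporter gene Slc2a3 (2.36 ± 0.25, adjusted p = 0.000343) and the enolase gene Eno3 (2.21 ± 0.17, adjusted p = 4.97e-05) also rose. Chrm1 (2.79 ± 0.55, adjusted p = 0.0116) and Cela1 (2.46 ± 0.53, adjusted p = 0.0170) were called, and lost the call when single controls were left out (adjusted p up to 0.0564 and 0.0787).

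**Figure D4:**
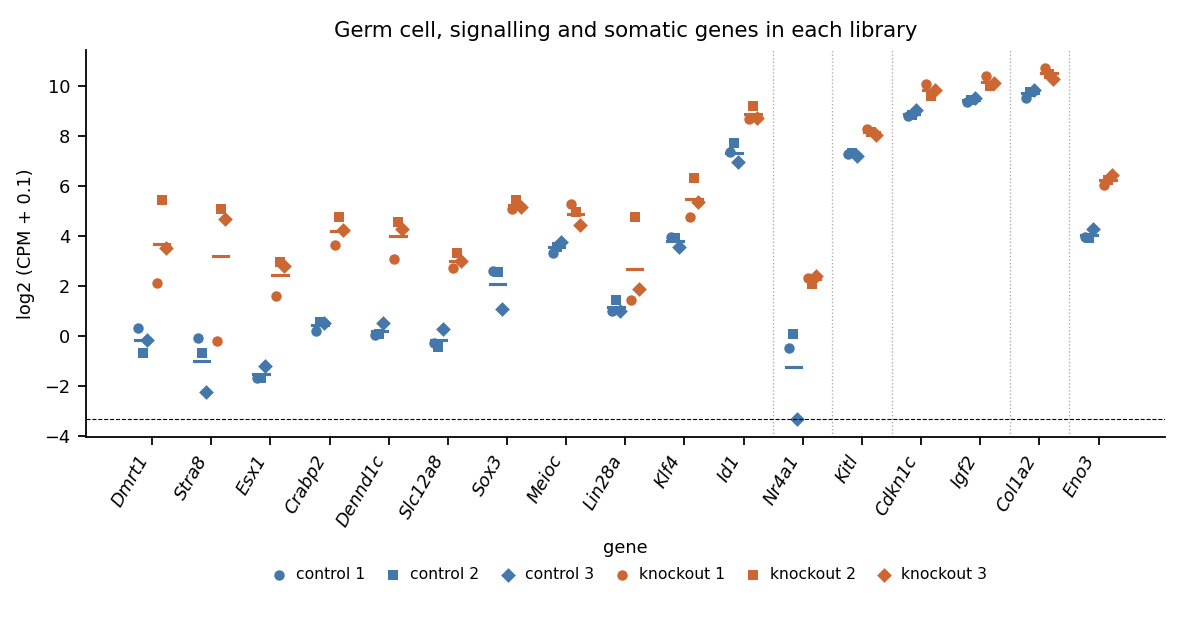
Level in each library (log scale, CPM) of genes called higher in the Lhx8 knockout, and of Stra8 (not tested) and Lin28a (not called). Each gene has 3 control and 3 knockout points. The knockout points of Dmrt1, Crabp2 and Sox3 lie above all control points.

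Genes of meiotic entry, normally past their peak at birth, were mixed: 2 of 11 that passed the filter rose and 1 fell. Meioc, which steadies the meiotic programme, measured 9.82, 11.8 and 13.6 CPM in the controls and 38.3, 31.2 and 21.6 CPM in the knockouts (log2 fold change 1.37 ± 0.24, adjusted p = 0.00537), and Dmrt1 is the other. Stra8, which opens meiosis in response to retinoic acid, did not pass the filter on low counts and has no test. Its levels were 0.836, 0.529 and 0.112 CPM in the controls and 0.780, 33.4 and 25.8 CPM in the knockouts, so that knockouts 2 and 3 were high and knockout 1 lay among the controls. Rec8 (0.40 ± 0.35, adjusted p = 0.496) and Spo11 (0.69 ± 0.49, adjusted p = 0.391) were not called. The recombination-site gene Prdm9 was lower (-0.69 ± 0.19, adjusted p = 0.0494), a call lost when single libraries were left out (adjusted p up to 0.182). In the retinoic acid list Crabp2 was the 1 called gene of 16 that passed the filter; the receptor gene Rarb measured 0.02 ± 0.45 (adjusted p = 0.984) and Cyp26b1, which degrades retinoic acid, -0.10 ± 0.23 (adjusted p = 0.805).

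Of 11 pluripotency and early germ cell genes that passed the filter, 3 were lower and 1 higher. The higher gene was Klf4, measured at 15.4, 14.9 and 11.6 CPM in the controls and 26.9, 79.9 and 40.9 CPM in the knockouts (log2 fold change 1.82 ± 0.35, adjusted p = 0.00900). Dppa3 and Kit, given above, and Zfp42 (-1.41 ± 0.27, adjusted p = 0.00979, adjusted p up to 0.0602 without single libraries) were the lower genes. Lin28a, a repressor of let-7 RNAs, was not called: it measured 1.88, 2.64 and 1.91 CPM in the controls and 2.63, 26.9 and 3.597 CPM in the knockouts (2.36 ± 0.79, adjusted p = 0.0847), with only knockout 2 far above the rest. Genes associated with the testis did not move as a group, with 3 of 16 lower, 1 higher (Dmrt1) and a median of 0.17, which turns to -0.56 with a minimum count of 50 and to -0.06 without control 1. Without control 1 or control 2, 2 of the list were called.

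Several somatic lists held more higher genes than the 3.06% of all genes tested, with 0 lower. Of 20 pregranulosa genes that passed the filter, 0 were lower and 4 higher (Kitl, Gja1, Irx5 and Krt19), and of 14 endothelial genes 0 were called. The 19 stroma and collagen genes included 6 higher, the 16 surface epithelium genes 3, the 13 steroidogenesis genes 0 with 1 lower (Hsd3b6), and the 16 macrophage and leukocyte genes 1, C1qc. Levels were also summed over all list members found, whether or not they passed the filter. The pregranulosa genes summed to 1878 to 2075 CPM in the controls and 2328 to 2576 CPM in the knockouts. The stroma and collagen genes summed to 4262 to 4801 CPM in the controls and 6193 to 7190.3 CPM in the knockouts. The groups overlapped in neither. The list medians lay between 0.07 and 0.62, against 0.05 for all genes tested. Apart from Kitl and Hsd3b6 most of these calls rested on single libraries: without control 1 or control 2, 1 pregranulosa gene and 2 stroma genes were called, and without control 1, 0 surface epithelium genes. Foxl2, the defining transcription factor gene of pregranulosa cells, measured 0.105, 0.106 and 0 CPM in the controls and 0, 0.204 and 0.868 CPM in the knockouts of this 3' tag set, near 0 in all 6, and did not pass the filter. In the Figla set at the same age it measured 128, 148 and 114 CPM in the controls. Wnt4 and Rspo1, also of pregranulosa cells, were present and not called (0.09 ± 0.14, adjusted p = 0.717 and 0.02 ± 0.12, adjusted p = 0.922).

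Sertoli-associated genes were split, with 3 of 15 that passed the filter lower and 3 higher. Sox9, the defining Sertoli transcription factor gene, measured 22.8, 22.3 and 28.6 CPM in the controls and 36.1, 40.3 and 56.8 CPM in the knockouts (log2 fold change 0.85 ± 0.20, adjusted p = 0.0239), and Fgf9, which acts with it in the testis, 8.36, 11.1 and 8.21 CPM against 13.8, 20.6 and 15.9 CPM (log2 fold change 0.86 ± 0.23, adjusted p = 0.0431). Both calls were lost when single libraries were left out (adjusted p up to 0.110 and 0.153). Sry was at 0 counts in all 6 libraries. Tesc measured 9.51, 9.62 and 6.19 CPM in the controls and 0.585, 0.818 and 0.992 CPM in the knockouts (log2 fold change -3.40 ± 0.38, adjusted p = 0.000432), the largest fall of this list. The list median was 0.19 and turned to -0.09 with a minimum count of 50 and -0.07 without knockout 3. Without control 2, 1 of the list was called.

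Summed levels of blood cell and duct markers were also compared. Each sum covers all list members found, whether or not they passed the filter, while counts of calls cover those that passed. The 15 erythroid genes found summed to 4164 to 6441 CPM in the controls and 4945 to 11892 CPM in the knockouts, with 0 of 7 called. The macrophage and leukocyte genes summed to 126 to 157 CPM in the controls and 167 to 244 CPM in the knockouts. In this sum every knockout library lay above every control. Of the 16 members that passed the filter, 16 had a log2 fold change above 0 and 1 was called. Over all 15274 genes tested, 8264 had a log2 fold change above 0. The mesonephros and duct genes summed to 216 to 246 CPM in the controls and 250.1 to 301 CPM in the knockouts, with 1 of 8 called, and the duct regulators Pax2 and Lhx1 did not pass the filter. The part of these cells in the changes above was not tested.

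Genes of the immediate early response, which cells switch on soon after a stimulus, were higher in 7 of the 20 that passed the filter, with 0 lower and a median of 0.84. Dusp1, a phosphatase of this response, measured 3.14, 2.33 and 3.26 CPM in the controls and 9.95, 10.3 and 7.81 CPM in the knockouts (log2 fold change 1.69 ± 0.28, adjusted p = 0.00465). Btg2 measured 13.9, 15.5 and 16.5 CPM against 27.5, 41.5 and 44.2 CPM (log2 fold change 1.30 ± 0.20, adjusted p = 0.00327), and Nr4a1 0.627, 0.952 and 0 CPM against 4.88, 4.19 and 5.21 CPM (log2 fold change 3.12 ± 0.65, adjusted p = 0.0151). Fos (1.88, 1.37 and 1.91 CPM against 1.66, 2.15 and 6.33 CPM, 0.95 ± 0.54, adjusted p = 0.283) and Egr1 (29.7, 32.7 and 39.5 CPM against 18.2, 52.1 and 30.3 CPM, -0.02 ± 0.31, adjusted p = 0.980), the best known of the group, were not called. The list summed to 642 to 773 CPM in the controls and 748 to 1494 CPM in the knockouts, with knockout 1 within the control range and knockouts 2 and 3 above it. The median was 1.14 without knockout 1 and 0.54 without knockout 3. Without control 1, 3 of the list were called, and the calls of Nr4a1, Nr4a2, Jun and Fosl2 were each lost when a single library was left out.

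Imprinted genes of fetal growth were higher in 5 of 14 that passed the filter, with 0 lower. Cdkn1c, a brake on the cell cycle, measured 447, 463 and 521 CPM in the controls and 1092, 772 and 911 CPM in the knockouts (log2 fold change 0.96 ± 0.15, adjusted p = 0.00324), and Peg10 100.1, 114 and 133 CPM against 198, 203 and 217 CPM (log2 fold change 0.83 ± 0.14, adjusted p = 0.00485). The growth factor gene Igf2 (0.74 ± 0.14, adjusted p = 0.00835), Dlk1 (0.58 ± 0.15, adjusted p = 0.0359) and Grb10 (0.65 ± 0.18, adjusted p = 0.0426) were called, and lost the call when single libraries were left out (adjusted p up to 0.0549, 0.153 and 0.158), and 2 of the list were called without control 2. H19, next to Igf2 and expressed from the other parental copy, was not called (0.12 ± 0.21, adjusted p = 0.757).

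Lists for death, recycling and division were set beside the 7.29% lower and 3.06% higher of all genes tested. Of 23 p53 targets and death genes that passed the filter, 3 were higher and 2 lower, Trp63 and the exonuclease gene Aen (-1.85 ± 0.32, adjusted p = 0.00567). The 3 higher genes were Cdkn1a (0.79 ± 0.15, adjusted p = 0.0102), Bbc3, which encodes the death factor PUMA (1.22 ± 0.29, adjusted p = 0.0263), and Trp53inp1 (0.78 ± 0.19, adjusted p = 0.0278), and each lost its call when single libraries were left out (adjusted p up to 0.0619, 0.109 and 0.110), with 2 of the list called without control 1 or control 2. Bax was not called (-0.80 ± 0.36, adjusted p = 0.182). In the autophagy and lysosome list 2 of 21 rose, Lamp2 and Ctsb, and 1 fell, Bnip3, and 0 were called without control 1, 2 or 3 or without knockout 2. Of 20 proliferation genes 2 fell, Birc5 (-1.26 ± 0.16, adjusted p = 0.00103) and Plk1 (-0.85 ± 0.13, adjusted p = 0.00290), while Mki67 measured 0.00 ± 0.17 (adjusted p = 0.995).

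Genes related to LHX8 by structure or by partnership were called in both directions. Of 17 LIM homeobox and cofactor genes that passed the filter, 2 were lower and 2 higher. Over all genes tested, 7.29% were lower and 3.06% higher. Lmo3, a LIM-only gene, was lower (-2.55 ± 0.58, adjusted p = 0.0222), and Ldb1 and Ldb2, the cofactors that bind LIM domains, were higher (1.15 ± 0.31, adjusted p = 0.0439 and 0.65 ± 0.14, adjusted p = 0.0192). All 3 calls were lost when single libraries were left out (adjusted p up to 0.0942, 0.151 and 0.0943). Lhx9, a LIM homeobox gene of the gonadal soma, measured 56.5, 54.2 and 62.2 CPM in the controls and 90.6, 67.7 and 86.6 CPM in the knockouts and was not called (0.50 ± 0.15, adjusted p = 0.0581). In the Notch list 3 of 14 were lower, Jag1, Jag2 and Heyl (-1.48 ± 0.30, adjusted p = 0.0123), and 1 was higher, Hes5 (2.29 ± 0.44, adjusted p = 0.00953). The receptor gene Notch2, on the pregranulosa side, was not called (0.24 ± 0.20, adjusted p = 0.474). The Heyl and Hes5 calls were lost when single libraries were left out, and 2 of the Notch list and 1 of the LIM list were called without control 1 or control 2.

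The largest changes in level, as a difference in CPM, were those of abundant genes. Tuba1c, an alpha-tubulin gene, measured 1434, 1285 and 1141 CPM in the controls and 163, 356 and 335 CPM in the knockouts (log2 fold change -2.18 ± 0.26, adjusted p = 0.000683). Rdx, of the membrane-actin linkers, measured 1112, 1287 and 997 CPM against 309, 390.2 and 369.5 CPM (log2 fold change -1.67 ± 0.15, adjusted p = 0.000112). Sfr1 measured 1172, 1212 and 1111 CPM against 432, 598 and 563 CPM (log2 fold change -1.13 ± 0.15, adjusted p = 0.00102). Serpinb6a was lower too (-1.25 ± 0.12, adjusted p = 0.000166). Among the higher genes, Col3a1, a collagen gene of stroma, measured 651, 666 and 733 CPM against 1247, 1119 and 1011 CPM (log2 fold change 0.72 ± 0.13, adjusted p = 0.00646), Col1a1 measured 0.53 ± 0.13 (adjusted p = 0.0283) and Col1a2 0.80 ± 0.15 (adjusted p = 0.00790). The calls of Hsp90aa1, Ncl, Sumo3, mt-Nd2, mt-Co1, mt-Rnr2, Col1a1 and Col1a2 were each lost when single libraries were left out (adjusted p up to 0.152, 0.116, 0.0529, 0.126, 0.149, 0.181, 0.140 and 0.0504). Mitochondrial genes moved in both directions, with mt-Nd2 lower (-0.53 ± 0.13, adjusted p = 0.0273) and mt-Rnr2 higher (0.44 ± 0.12, adjusted p = 0.0432).

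The knockouts differed among themselves in how much oocyte transcript was left. Of 166 genes lower by over 4-fold with at least 5 CPM in the controls, knockout 2 was the highest of the 3 knockouts in 95, knockout 3 in 41 and knockout 1 in 30. Nlrp5 and Lin28a, given above, are among the genes where knockout 2 stood apart. Without knockout 2, 970 genes were called lower.

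Most genes lower in the Lhx8 knockout were also called lower in the Figla knockout of the same age. The 2 comparisons share no library, each having its own controls, and the sets differ in kit. Of the 1035 genes lower in the Lhx8 knockout that could be tested in the Figla set, 762 were lower there too (73.6%). Over all 14185 genes tested in both sets, 1711 were called lower in the Figla knockout and 788 higher. The 762 shared lower genes are 44.5% of those 1711. Of 448 higher genes, 179 were higher there (40.0%, and 22.7% of the 788 higher in the Figla knockout). Opposite calls were few, at 1 of the lower and 7 of the higher genes. Across the 14185 genes tested in both, the 2 log2 fold changes had Pearson's r = 0.76, a description across genes that are not independent.

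**Figure D5:**
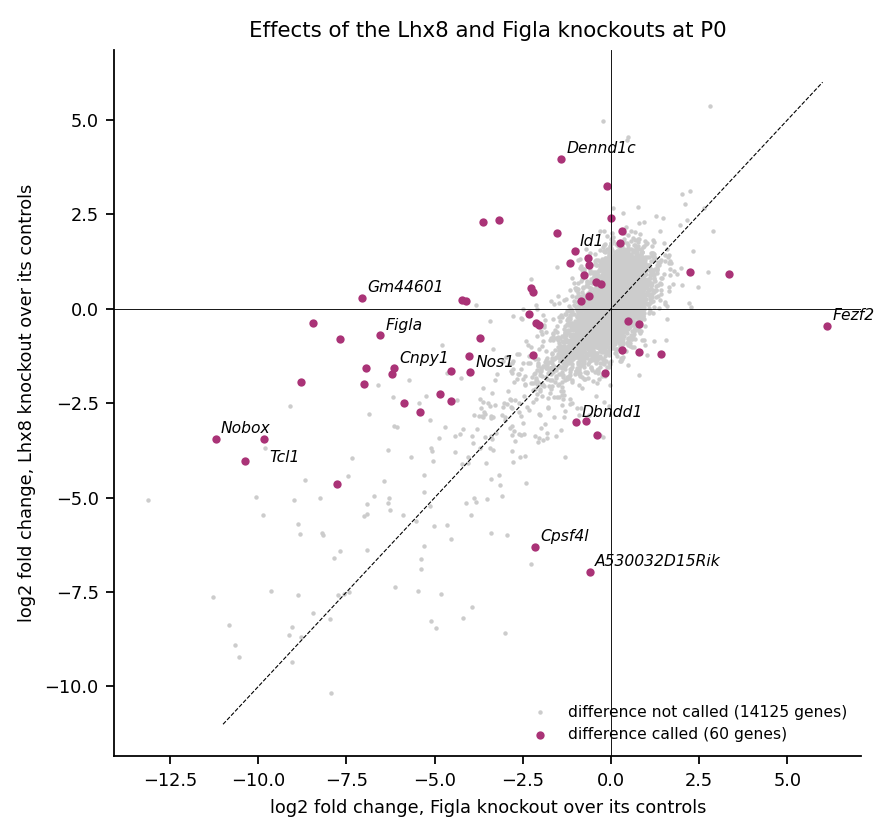
Log2 fold change in the Figla knockout (horizontal axis) against that in the Lhx8 knockout (vertical axis) for the 14185 genes tested in both sets, with genes whose 2 effects differ coloured. By the test of the difference, 46 genes had a Lhx8 effect above the Figla effect and 14 below it.

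In the test of the difference itself, 46 genes had a Lhx8 effect above the Figla effect (0.324%) and 14 below it (0.0987%). The targeted gene Figla had the smallest p of the first group: it measured 32.2, 36.1 and 40.5 CPM in the Figla controls and 0.179, 0.626 and 0.294 CPM in the Figla knockouts, a difference between effects of 5.81 ± 0.42 (adjusted p = 7.3e-06). Nos1, the neuronal nitric oxide synthase gene, fell in both but by less without Lhx8: 176, 207 and 187 CPM to 62.2, 57.2 and 58.3 CPM in the Lhx8 set and 255, 303 and 363 CPM to 21.9, 19.7 and 16.5 CPM in the Figla set (difference 2.29 ± 0.20, adjusted p = 3.2e-05). Tcl1, a maternal effect gene with 2 counts over the Figla knockouts, had a difference of the same sign. Esrp1, a splicing regulator gene of epithelia, measured 184, 204 and 154 CPM against 64.4, 99.96 and 64.9 CPM in the Lhx8 set and 368, 331 and 442 CPM against 27.5, 19.6 and 23.1 CPM in the Figla set (difference 2.77 ± 0.26, adjusted p = 5.01e-05). Cnpy1 (4.55 ± 0.37, adjusted p = 1.25e-05) and Gm44601 (7.31 ± 0.56, adjusted p = 8.82e-06) had differences of the same sign. Id1, an inhibitor of basic helix-loop-helix factors and a target of BMP signals, moved in opposite directions. It rose from 163, 211 and 123 CPM to 410.3, 593 and 423 CPM in the Lhx8 set (1.52 ± 0.21, adjusted p = 0.00172) and fell from 118, 94.1 and 92.8 CPM to 45.7, 52.4 and 51.4 CPM in the Figla set (-1.03, adjusted p = 0.000385), a difference of 2.53 ± 0.27 (adjusted p = 0.000175).

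Genes with a Lhx8 effect below the Figla effect were fewer. Bend4 measured 9.198, 11.5 and 10.6 CPM against 4.88, 5.11 and 4.09 CPM in the Lhx8 set and 43.5, 25.8 and 29.3 CPM against 53.8, 59.4 and 56.6 CPM in the Figla set (difference -1.95 ± 0.28, adjusted p = 0.00399). Fezf2, a zinc finger transcription factor gene of the brain, measured 1.25, 1.16 and 0.337 CPM against 1.07, 0.307 and 0.620 CPM in the Lhx8 set, and 0, 0 and 0.229 CPM against 5.92, 6.73 and 7.16 CPM in the Figla set (adjusted p of the difference = 0.004002). C1ql1, which encodes a secreted synaptic ligand, measured 1.36, 1.37 and 1.91 CPM against 3.12, 2.76 and 2.98 CPM in the Lhx8 set, and 3.76, 4.65 and 3.66 CPM against 38.2, 43.8 and 39.998 CPM in the Figla set (difference -2.42 ± 0.32, adjusted p = 0.00198). In Fezf2 and C1ql1 all Figla knockout libraries lay above the Figla controls, so that these differences came with higher levels there. The Bend4 call in the Lhx8 set (-1.15 ± 0.24, adjusted p = 0.0161) was lost when single libraries were left out. Cpsf4l (-4.18 ± 0.38, adjusted p = 3.41e-05), Dbndd1 (-2.04 ± 0.30, adjusted p = 0.00399), Slc4a8 (-1.55 ± 0.24, adjusted p = 0.00543), A530032D15Rik (1 count over the Lhx8 knockouts) and Spata33 (-1.40 ± 0.23, adjusted p = 0.00747) had differences of the same sign. No difference call of the genes named here was lost in any alternative run. Nobox measured 0, 0.0783 and 0.0980 CPM in the Figla knockouts and Zp1, Zp2 and Zp3 had 0 counts there. Where a knockout group is near 0 counts the fitted effect depends on the prior count, so such genes cannot be ranked between the knockouts.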

How the data were processed

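RNA of whole ovaries was measured in 6 Lhx8 libraries at postnatal day 0, made with the QuantSeq 3' mRNA-Seq FWD kit per the labels' protocols, which gives tags near the 3' end, so levels need no length correction. Per the submitters' processing notes, cutadapt trimmed the reads and HISAT2 placed them on GRCm38.p5. The deposited values are raw read counts per gene, which featureCounts 1.6.0 took over GENCODE M12 genes without regard to strand, per the file headers. Antisense reads therefore add to a gene, near copies may share or lose reads, and no molecular identifiers were counted, so intervals cover counting error only. The tables hold 49585 genes, 49326 with a symbol.

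Libraries were grouped by library name. edgeR 4.0.16 in R 4.3.3 gave the quasi-likelihood test with TMM scaling, for genes passing filterByExpr (minimum count 10, minimum total 15), with no covariate. CPM use TMM-scaled library sizes. The difference of the Lhx8 and Figla effects was a contrast over the 12 P0 libraries. On simulated data with these depths, 66% of 2-fold and 97% of 4-fold changes were recovered, with 4 false calls among 14955 genes. The changes were planted only in genes with a mean over 3 CPM, so recovery at lower levels was not measured. The simulated spread was taken from the fit, and real replicates may vary more. Replicates of each group differed beyond sampling noise. Alternatives were other scalings, filters and tests (DESeq2 1.42.0), left-out libraries, a replicate block and a joint model. A group at 0 counts was set to a floor of 3 counts, and groups with 1 to 3 counts were given exact 95% binomial intervals.

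The members and the 32 gene lists were chosen with earlier results of these data known. Genes named are the 5 transcription factors of the network; the 12 lower and 12 higher genes with the largest fold change, non-overlapping groups and at least 5 CPM; the 8 in each direction with the largest CPM difference; in each list up to 8 called and 4 not called members; genes in runs of called genes; and the 8 in each direction with the smallest p in the difference of effects. Other genes, named after their values were seen, are given as values (Stra8, Foxl2, Sry, and genes near Lhx8). A few genes that this rule picks are not reported here.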

Additional observations from a re-analysis of the deposited data

How the results depend on the processing

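Against 1114 lower and 468 higher genes as reported, other scalings, a minimum count of 50 and DESeq2 stayed within 1.5 times. With no filter on low counts 1712 genes were lower and 970 higher, and in 1 model of the 12 P0 libraries 1757 and 1081. With a replicate block 714 were lower and 217 higher, of which 703 and 205 are among the reported calls. Deviations of same-numbered libraries from their group means had r = -0.25, 0.06 and 0.07. With 3 libraries per group, these values cannot tell whether the numbers pair the samples. Leaving out 1 library gave 531 to 1021 lower and 99 to 469 higher genes, the fewest without control 2. Without 1 knockout, 970 to 1021 were lower and 366 to 469 higher, and without 1 control 531 to 707 and 99 to 204. The cause was not tested. The test of the difference between the Lhx8 and Figla effects called 60 genes as reported, 127 with DESeq2, and 37 to 89 with 1 library left out. Of 162 named genes that were called, 149 were called in every alternative with all libraries other than the block. In every alternative that tested them, 94 were called. Over 2145 recomputations of 167 named genes, 302 lost the call, 7 gained one and 0 changed direction. Since 162 of these genes were called as reported, most genes given here as not called are outside this count. Such genes can gain calls: the macrophage and leukocyte list had 1 call as reported and 0 to 6 with 1 library left out. Depth limits genes near 0 counts, whose fitted values depend on the prior count.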
